A study of Mus musculus with 8 samples.

Results

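Siglecs are receptors of the immunoglobulin superfamily that bind sialic acid, the acidic sugar that caps many glycans on the surface of cells. The 7 Siglec genes described here are Cd22, Cd33, Siglech, Siglece, Siglecf, Siglec1 and Siglecg, chosen by symbol from the 51810 genes of the deposited count table, which holds a row for each of them. RNA was measured in microglia, the resident macrophages of the brain, taken with CD11b magnetic beads after myelin removal from the brains of wild-type mice. The groups were white matter at 4 months, grey matter at 4 months, white matter at 21 months and grey matter at 21 months, with 2 libraries each. No group carried a treatment or an engineered allele. For grey matter samples, too, the region label reads corpus callosum, and their assignment to grey matter was taken from the sample titles and tissue entries. Beads against CD11b also take other myeloid cells. Whether the 2 libraries of a group stem from different animals is not stated, so a p-value here measures the spread between samples that may be technical replicates.

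Most Siglecs carry tyrosine motifs in their cytoplasmic tail. When the receptor binds sialic acid, these motifs recruit phosphatases such as the product of Ptpn6 and dampen activation of the cell. Others lack the motifs: Siglech pairs with the adaptor encoded by Tyrobp, and Siglec1 serves mainly in adhesion. Cd22 is best known as a brake on B cell receptor signalling, and on microglia of old mice it has been described as a brake on phagocytosis. The sialic acid linkage that CD22 prefers is the one made by the enzyme encoded by St6gal1.

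In white matter Cd22 was 7.35-fold higher at 21 than at 4 months, or 5.06-fold without 1 divergent young library, which leaves 1 in that group. At 21 months Cd22 was 2.51-fold higher in white than in grey matter. It was the only one of the 7 genes that passed the test in any comparison of the 3 principal fits, and it passed only when the 21-month libraries were fitted alone. Siglech and Siglece lay lower in old white than in old grey matter, by 1.49-fold and 1.53-fold, without passing that test. Cd33, which had the most counts of the 7 genes in all but 1 library, moved least between the old groups.

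The 6 Siglecs on chromosome 7 include neighbours that lie side by side. Among the protein-coding genes of the GENCODE M21 annotation, in order of position, Siglecf is followed by Siglecg. In the same order Cd22 is followed by Mag, the Siglec of myelin-forming glia. Siglec1 lies on chromosome 2. Promoter sequence from RefSeq on GRCm38.p6 was matched for 6 of the 7 genes, all but Siglec1. The stretches of Cd22, Siglech, Siglecf and Cd33 are printed because their genes moved differently between the groups, and because Siglecf and Cd33 share sequence. They cover bases within 250 before the annotated start that lie outside annotated exons, on the gene's own strand. Annotated exons took up 102 of the 250 bases for Cd22, 57 for Cd33 and 6 for Siglech, and these bases are not printed. Capitals mark 3 motifs that were chosen after the sequences were seen. The first is GGAAG or its reverse complement CTTCC, the core bound by ETS factors such as the product of Spi1, the master regulator of microglia. The second is TGTGGT or its reverse complement ACCACA, a RUNX core, and the third is CACGTG, an E-box.
Cd22, chr7:30879029-30879176, minus strand: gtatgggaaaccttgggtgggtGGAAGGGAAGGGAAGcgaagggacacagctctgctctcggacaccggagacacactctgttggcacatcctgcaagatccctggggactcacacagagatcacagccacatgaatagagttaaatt
Siglech, chr7:55767934-55768177, plus strand: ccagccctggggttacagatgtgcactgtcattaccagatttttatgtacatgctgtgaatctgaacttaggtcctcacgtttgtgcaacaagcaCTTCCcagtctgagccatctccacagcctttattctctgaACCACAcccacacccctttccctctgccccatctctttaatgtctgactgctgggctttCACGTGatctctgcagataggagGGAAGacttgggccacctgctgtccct
Siglecf, chr7:43351091-43351340, plus strand: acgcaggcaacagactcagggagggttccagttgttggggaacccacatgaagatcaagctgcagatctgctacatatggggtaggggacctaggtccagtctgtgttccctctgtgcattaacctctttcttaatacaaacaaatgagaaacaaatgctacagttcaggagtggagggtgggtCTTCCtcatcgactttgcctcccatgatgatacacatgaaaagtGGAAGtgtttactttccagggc
Cd33, chr7:43533172-43533364, minus strand: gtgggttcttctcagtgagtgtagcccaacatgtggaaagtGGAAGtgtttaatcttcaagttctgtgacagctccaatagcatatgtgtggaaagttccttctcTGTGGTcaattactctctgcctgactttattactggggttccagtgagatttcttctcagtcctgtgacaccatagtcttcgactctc

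Cd22 held 3 GGAAG motifs end to end, with first bases at -126, -121 and -116 counted from the start site. All 6 matched members held GGAAG on 1 strand or the other in the 250 bases before a start, annotated exons included. So did 64.1% of 32851 mouse promoters of that length. The RUNX core was found in Cd33 and Siglech and in 14.0% of those promoters, and the E-box was found in Siglech and in 6.02% of them. No 2 of these motifs overlapped. Siglecf and Cd33 shared the 16-base run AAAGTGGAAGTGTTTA, starting at -27 in Siglecf and at -157 in Cd33, and no other of the 32851 promoter windows of 300 bases held it. The longest run shared by any other pair of the members was 7 to 10 bases. These matches describe letters only. They were not compared with binding data, and no source used here names the build or annotation behind the counts.

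Library totals ran from 3273258 to 6315782 counts. Levels are given as CPM, counts scaled to a common library total after TMM scaling. A single library, the first of 4-month white matter, differed from the rest. The 14 oligodendrocyte markers reached a sum of 70815 CPM there and of 534 to 1332 CPM elsewhere, and the 12 homeostatic microglia markers a sum of 3583 CPM there and of 14425 to 21409 CPM elsewhere. The transcripts AY036118 and CT010467.1 made up 38.8% of that library and 6.78% to 20.7% of the others. The main differences that use this library are therefore given with and without it. Without it, 4-month white matter is left with a single library, so those values are not replicated in that group. Fewer cells of a type and less RNA per cell cannot be told apart in these bulk libraries.

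Per kilobase of exon, taken from the GENCODE M21 models, the 7 genes fell into an abundant and a scarce set. Over the other 7 libraries the median level was 121.9 CPM per kilobase for Siglech, 99.3 for Cd33 and 53.4 for Siglece. The median was 4.87 CPM per kilobase for Siglecf, 3.85 for Cd22, 1.55 for Siglecg and 1.22 for Siglec1. The least level of Siglece, 36.2 CPM per kilobase, was above the highest of Cd22, 14.2 CPM per kilobase. Cd22 ran over the widest range of the scarce genes relative to its own median, from 1.95 to 14.2 CPM per kilobase.

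Cd22 encodes an inhibitory receptor. Its level was 69.5 and 61.1 CPM in the 21-month white matter libraries and 18.8 and 33.5 CPM in 21-month grey matter. The young libraries held 4.72 and 12.8 CPM in white matter and 11.3 and 9.51 CPM in grey matter. The order of the group means was 21-month white matter, 21-month grey matter, 4-month grey matter and 4-month white matter, and the first 2 steps separated groups that did not overlap, while the 2 young groups did overlap. These levels rested on 294 and 246 counts in old white matter but on only 13 and 51 counts in young white matter.

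**Figure D1:**
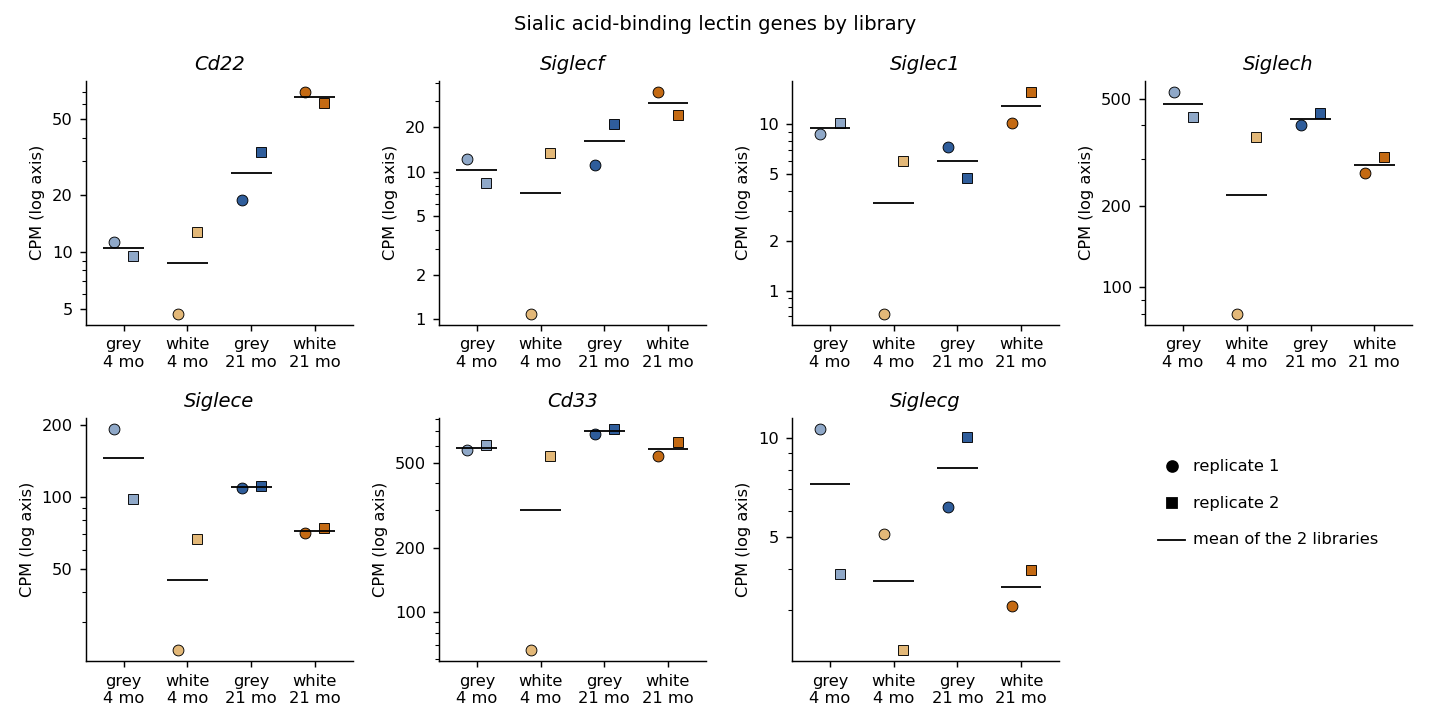
CPM (log axis, its range differing between panels) of each of the 7 lectin genes in the 8 libraries, with a line at the mean of the 2 libraries of a group. Cd22 stands highest in both 21-month white matter libraries, at 69.5 and 61.1 CPM, and the first 4-month white matter library is the lowest point for every gene except Siglecg.

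At 21 months, the fit of all 8 libraries put Cd22 higher in white matter by 1.32 ± 0.518 (SE) on the log2 scale, with an adjusted p of 1.00. That fit called 0 of 16237 genes in this comparison (0% at an adjusted p under 0.05, 2.35% at an unadjusted p under 0.05). Fitted to the 21-month libraries alone, the difference was 1.33 ± 0.266, a 2.51-fold higher level, and Cd22 was called with an adjusted p of 0.0415 (edgeR quasi-likelihood). In that fit 1.58% of 14717 genes were called, 0.985% as higher and 0.591% as lower in white matter, and of the 7 lectin genes 1 was called as higher and 0 as lower. Without the divergent young library, but with the other 7 in the fit, the same difference of 1.33 had an adjusted p of 0.263, in a fit that called 0.109% of genes. Each of these fits took the size of the difference from the same 21-month libraries, so its likeness across them was built in. The call did not hold across them.

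With age in white matter, Cd22 was higher by 2.88 ± 0.554 on the log2 scale in the fit of all 8 libraries, a 7.35-fold difference, with an adjusted p of 0.615. Without the first young library the difference was 2.34 ± 0.435, a 5.06-fold higher level, with an adjusted p of 0.691. Both old libraries lay above both young ones, as was so for 35.2% of all genes tested taken in either direction and for 19.8% in this direction. edgeR called 0 of 16237 genes in this comparison (8.1% at an unadjusted p under 0.05). DESeq2 on all 8 libraries called Cd22 with an adjusted p of 0.000563 among 369 calls, and on the 7 libraries without the divergent one with an adjusted p of 0.00667 among 27 calls. With no filter on low counts edgeR also called Cd22 here, with an adjusted p of 5.36e-05 among 963 calls. The call for Cd22 with age in white matter therefore depended on the test and on the filter.

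In grey matter the aging difference of Cd22 had the same sign. It was 1.32 ± 0.525 on the log2 scale, a 2.50-fold higher level at 21 months, with an adjusted p of 1.00 in edgeR. The old libraries at 18.8 and 33.5 CPM did not overlap the young ones at 11.3 and 9.51 CPM, and 34.5% of all genes tested did not overlap in this comparison, with 17.2% of all genes tested not overlapping and higher. edgeR called 0% of genes here and found 0.733% at an unadjusted p under 0.05. The difference between the aging changes of the 2 regions was 1.56 ± 0.739 for Cd22, with an adjusted p of 1.00, and 1.01 ± 0.521 without the first young library. No gene was called for this difference (0%, and 2.8% at an unadjusted p under 0.05), so a larger aging change of Cd22 in white than in grey matter did not pass the test.

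Counted within a library, which needs no scaling between libraries, Cd22 gave 7.03% and 5.53% of the counts of the 7 genes in old white matter. Its share was 1.53% and 2.49% in old grey matter, 0.848% and 0.817% in young grey matter, and 2.62% and 1.28% in young white matter. The 2.62% came from 13 counts, with a 95% Wilson interval of 1.53% to 4.42% that covers counting error only. For each 100 counts of Siglech there were 26.1 and 20.0 counts of Cd22 in old white matter and 4.70 and 7.54 in old grey matter. Young grey matter held 2.13 and 2.22 counts of Cd22 for each 100 of Siglech, and young white matter 5.91 and 3.54. In old white matter both within-library measures lay above those of the other 6 libraries, the divergent one included.

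**Figure D2:**
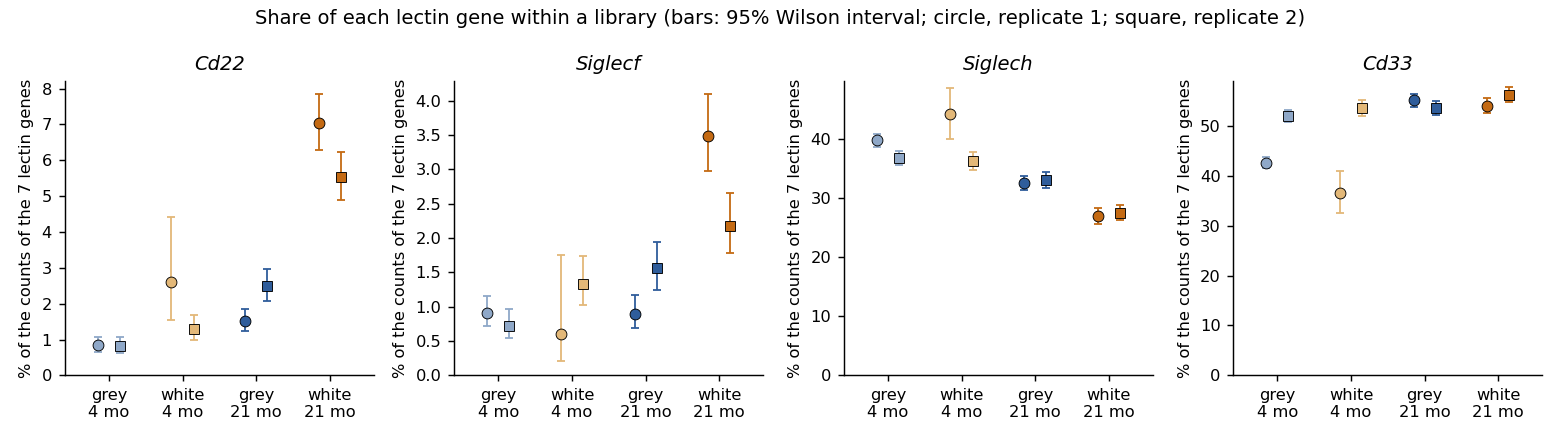
Share in percent of Cd22, Siglecf, Siglech and Cd33 among the counts of the 7 lectin genes of a library, with 95% Wilson intervals. Cd22 took 7.03% and 5.53% in the 21-month white matter libraries, above the other 6, and Siglech took its lowest shares there.

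B cells are the classic source of Cd22, so their markers were set beside it. The 10 B cell markers summed to 377 and 348 CPM in old white matter and to 558 and 533 CPM in old grey matter, the reverse of the order of Cd22. With age, the sums moved in the same direction as Cd22 without overlap: they were 99.6 and 297 CPM in young white and 526 and 427 CPM in young grey matter. Of 6 markers tested for age in white matter 4 lay above 0, with a median of 0.91, and 5 of 7 without the divergent library, with a median of 0.24. For age in grey matter 3 of 6 lay above 0 with all 8 libraries, with a median of 0.22. With the grey matter libraries alone 2 of 5 did, with a median of -0.08. The part of B cells in the aging difference of Cd22 was not tested. Most of that sum was Ighm, at a mean of 316 CPM in old white and 391 CPM in old grey matter. Ms4a1, which encodes the B cell antigen CD20, had no count in either old white matter library. None of the 4 B cell markers tested in the 21-month fit was called, and all 4 lay below 0. The span of antisense gene Gm29439 overlaps that of Cd22, and whether their exons overlap was not checked. Since no source used here states whether counting used strand, reads from any shared exon cannot be told apart.

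Siglecf, an inhibitory Siglec known from eosinophils and lung macrophages, had its 4 group means in the same order as Cd22. It reached 34.5 and 24.1 CPM in old white matter and 11.1 and 20.9 CPM in old grey matter. In young white matter it was 1.09 and 13.3 CPM and in young grey matter 12.2 and 8.41 CPM. The old white matter libraries were the 2 highest of the 8. In the fit of the 21-month libraries alone its difference was 0.88 ± 0.341 on the log2 scale, with an adjusted p of 0.337. With age in white matter Siglecf differed by 1.99 ± 0.917, with an adjusted p of 0.622, and by 1.13 ± 0.516 without the divergent library, in which it had only 3 counts. Between the old regions eosinophil markers ran the other way: the 8 genes summed to 4.02 and 2.98 CPM in old white matter and to 37.2 and 43.5 CPM in old grey matter. With age their sums were higher in both regions, as the means of Siglecf were. The sums were 2.54 and 2.26 CPM in young white and 24.4 and 16.3 CPM in young grey matter. Most single markers did not follow: with all 8 libraries 1 of 4 tested lay above 0 in white and 1 of 4 in grey matter. Without the divergent library 3 of 5 did in white and 2 of 5 in grey matter. The part of eosinophils in the aging difference was not tested. Prg2, a granule protein gene of eosinophils, fell by 7.19 on the log2 scale between old grey and old white matter, with an adjusted p of 0.00105. Prg3, Ear6 and Il5ra, which mark eosinophils, had no count in either old white matter library.

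Siglec1 encodes sialoadhesin, an adhesion receptor of macrophages that interferon induces. Its level was 10.2 and 15.6 CPM in old white matter and 7.33 and 4.75 CPM in old grey matter. In young white matter it was 0.727 and 6.02 CPM and in young grey matter 8.72 and 10.2 CPM. The regions were thus in opposite order at the 2 ages, without overlap at either age. At 21 months Siglec1 was higher in white matter by 1.06 ± 0.399 on the log2 scale in the 21-month fit, with an adjusted p of 0.316. At 4 months it differed by -1.44 ± 0.820 on the log2 scale, lower in white matter, with an adjusted p of 0.666, and the difference was -0.64 without the divergent library. Between the ages in white matter Siglec1 differed by 1.88 ± 0.827, with an adjusted p of 0.620, and by 1.08 ± 0.565 without that library. The difference between the 2 aging changes was 2.52 ± 1.14, with an adjusted p of 1.00, and 1.71 ± 0.716 without that library. This opposite ordering therefore did not pass the test.

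Interferon-stimulated genes were set beside Siglec1. The 16 listed genes summed to 264 and 286 CPM in old white matter and to 253 and 201 CPM in old grey matter. In the 21-month fit 12 of 15 tested lay above 0, with a median of 0.46 against 0.01 over all genes, and 0 of 15 was called. In the aging comparison of white matter 13 of 15 lay above 0, or 15 of 15 without the divergent library, as Siglec1 did. With all 8 libraries 12 of 15 lay below 0 between the regions at 4 months, again as Siglec1 did. With age in grey matter, however, 10 of 15 lay above 0, with a median of 0.20, while Siglec1 differed by -0.64. Their part in the Siglec1 values was not tested. Border-associated macrophages also carry sialoadhesin, and their 12 markers summed to 371 and 503 CPM in old white and 789 and 885 CPM in old grey matter, the reverse of the order of Siglec1. In some other comparisons most of these markers lay on the same side as Siglec1. All 12 lay below 0 between the regions at 4 months, 11 of 12 lay below 0 with age in grey matter, and 11 of 12 lay above 0 for age by region, or 6 of 12 without the divergent library. With age in white matter, however, 7 of 12 lay below 0, or 10 of 12 without the divergent library, while Siglec1 lay above 0. The part of these cells was not tested.

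Siglech, found in the brain mainly on microglia and elsewhere on plasmacytoid dendritic cells, was the most abundant of the 7 per kilobase. It was 266 and 305 CPM in old white matter and 401 and 444 CPM in old grey matter. In young white matter it was 79.95 and 362 CPM and in young grey matter 532 and 428 CPM. In both ages white matter lay below grey matter without overlap. The difference at 21 months was -0.58 ± 0.161 on the log2 scale in the 21-month fit, a 1.49-fold lower level, with an adjusted p of 0.139. At 4 months it was -1.12 ± 0.659 with all 8 libraries, with an adjusted p of 0.678, and -0.39 ± 0.270 without the divergent library. Aging changed its sign with that library: Siglech differed by 0.37 with age in white matter with all 8 libraries and by -0.36 without the first young one. Neither value passed the test.

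Homeostatic genes of microglia, with which Siglech is commonly listed, had a smaller median difference between regions at 21 months than Siglech had. Their 12 listed members had a median log2 difference of -0.25 between old white and old grey matter, with values from -0.59 to 0.28. Of these, 9 of 12 lay below 0, and 0 was called. Their sums overlapped, at 14590 and 14599 CPM in old white and 14425 and 17126 CPM in old grey matter. Markers of plasmacytoid dendritic cells were scarce, summing to 26.3 and 30.3 CPM over 8 genes in old white matter and to 26.3 and 20.7 CPM in old grey matter. Of those 8, 4 were tested in the 21-month fit, where 2 lay above 0 and 2 below, with a median of -0.12. Cox6a2 alone was called, as higher by 3.14 with an adjusted p of 0.019. Cox6a2 encodes a muscle form of a respiratory chain subunit, and it moved against the direction of Siglech.

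Siglece is the main inhibitory Siglec related to CD33 on mouse neutrophils, monocytes and microglia. Its level was 70.96 and 74.0 CPM in old white matter and 108.9 and 111.6 CPM in old grey matter. Among young libraries it was 22.9 and 66.98 CPM in white matter and 193 and 98.7 CPM in grey matter. The 2 old groups were tight and did not overlap, while the 2 young grey matter libraries lay far apart. The difference at 21 months was -0.62 ± 0.160 on the log2 scale in the 21-month fit, with an adjusted p of 0.110. At 4 months the difference was -1.69 ± 0.557 with all 8 libraries, with an adjusted p of 0.479, and -1.10 ± 0.378 without the divergent one, with an adjusted p of 0.920. Siglece was thus lower in white matter at both ages in these libraries, without a call in those fits. With no filter on low counts, the fit of all 8 libraries called it at 4 months, at -1.72 with an adjusted p of 0.0318.

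Between the regions neutrophil and monocyte markers moved in the same direction as Siglece. The 12 neutrophil markers summed to 1002 and 559 CPM in old white matter and to 3044 and 2730 CPM in old grey matter, and at 4 months to 396 and 1127 CPM in white and 5525 and 2814 CPM in grey matter. The 12 monocyte markers summed to 233 and 192 CPM in old white and 683 and 485 CPM in old grey matter. In the 21-month fit all 12 neutrophil markers lay below 0 and 5 were called, and all 12 monocyte markers lay below 0 and 6 were called. The first young grey matter library, the highest of the 8 for Siglece, was also the highest for neutrophil markers. With age in white matter, in the fit of all 8 libraries, 11 of 12 neutrophil and 7 of 12 monocyte markers lay below 0, while Siglece differed by 0.68. With age in grey matter 12 of 12 and 7 of 12 lay below 0, where Siglece differed by -0.40. The part of these cells in the Siglece values was not tested.

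**Figure D3:**
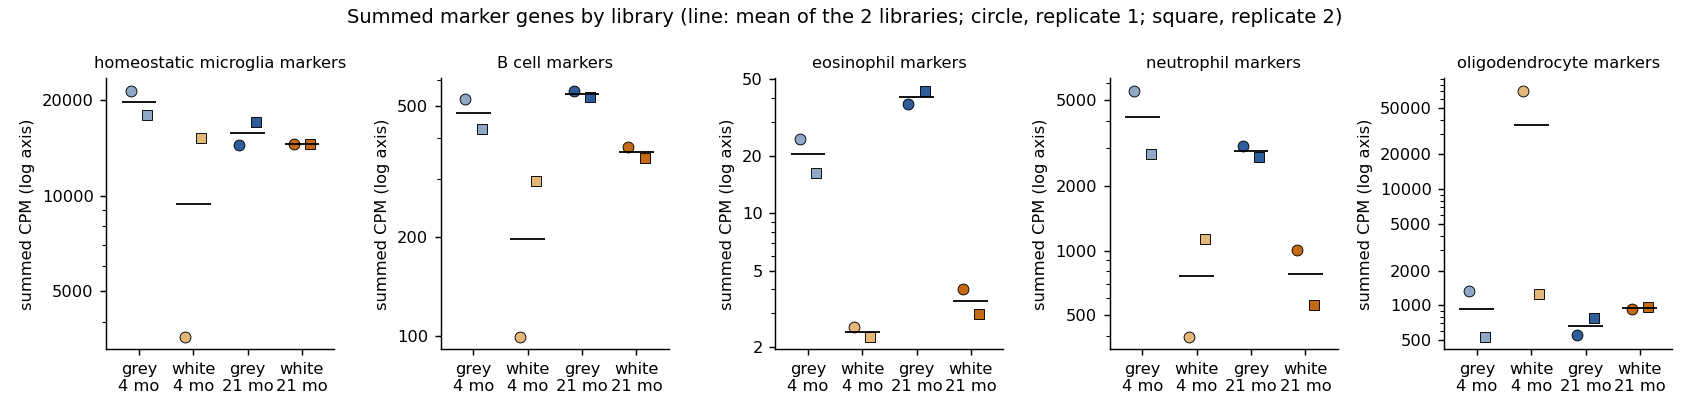
Summed CPM (log axis) of the marker lists of homeostatic microglia, B cells, eosinophils, neutrophils and oligodendrocytes in the 8 libraries. B cell, eosinophil and neutrophil sums were lower in old white than in old grey matter, and the first 4-month white matter library stood at 70815 CPM for oligodendrocyte markers.

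Cd33 is the mouse counterpart of the human receptor gene whose variants are tied to Alzheimer's disease. It was 534 and 622 CPM in old white matter and 679 and 719 CPM in old grey matter. Young samples gave 66.1 and 535 CPM in white matter and 570 and 604 CPM in grey matter. Apart from the divergent library, all values lay between 534 and 719 CPM, the narrowest range of the 7 genes in relative terms. The difference at 21 months was -0.28 ± 0.163 on the log2 scale in the 21-month fit, with an adjusted p of 0.593. With age in white matter Cd33 differed by 0.94 ± 0.823 with all 8 libraries and by 0.10 ± 0.266 without the first young one, so most of that difference came with 1 library. Between the regions at 4 months it differed by -0.96 ± 0.823, and by -0.12 ± 0.266 without that library. In old grey matter it lay above young grey matter without overlap, by 0.25 ± 0.816 in the fit of all 8 libraries, 0.26 ± 0.216 without the divergent one and 0.27 ± 0.233 with the grey matter libraries alone, with no call in any of these fits.

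Siglecg, an inhibitory Siglec of B cells that binds the glycoprotein encoded by Cd24a, was near the limit of these libraries. It had between 9 and 61 counts in a library. Its level was 3.07 and 3.97 CPM in old white matter and 6.14 and 10.05 CPM in old grey matter. In the young groups it was 5.09 and 2.26 CPM in white matter and 10.6 and 3.84 CPM in grey matter. The old groups did not overlap, with a difference of -1.19 ± 0.478 on the log2 scale and an adjusted p of 0.362 in the 21-month fit. Its young groups overlapped, and its aging change in white matter, -0.04 ± 0.744, turned positive under several other settings. B cell markers moved with Siglecg between the old groups, and 5 of 6 lay below 0 between the regions at 4 months, as Siglecg did. With age in white matter their sums rose without overlap, from 99.6 and 297 CPM to 377 and 348 CPM. Siglecg there differed by -0.04, or by 0.62 without the divergent library, where 5 of 7 markers lay above 0. The first young white matter library had the lowest B cell sum of the 8 libraries but more Siglecg than its partner. The part of B cells in the Siglecg values was not tested.

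Side by side at 21 months, all 7 genes had old white and old grey matter libraries that did not overlap, 3 with white matter higher and 4 with it lower. Among all genes in the fit of all 8 libraries 40.3% did not overlap, 20.9% as higher and 19.5% as lower. The median log2 difference of the 7 was -0.28 in the 21-month fit, against 0.01 over all genes tested. At 4 months 4 of the 7 did not overlap between the regions, Cd33, Siglec1, Siglece and Siglech, all as lower in white matter, against 28.9% of all genes and 15.5% as lower. That comparison held no call (0%), with 8.91% of genes at an unadjusted p under 0.05. With all 8 libraries every member lay below 0 at 4 months, with a median of -0.99, and without the divergent library 5 of 7 did, with a median of -0.39 and with Cd22 at 0.31 and Siglecf at 0.39. Cd22, Siglecf and Siglec1 lay higher in old white matter, and Siglech, Siglece, Cd33 and Siglecg lay lower, so the scarce genes did not all go one way. Of these, Cd22 passed the test in the 21-month fit and the others did not.

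**Figure D4:**
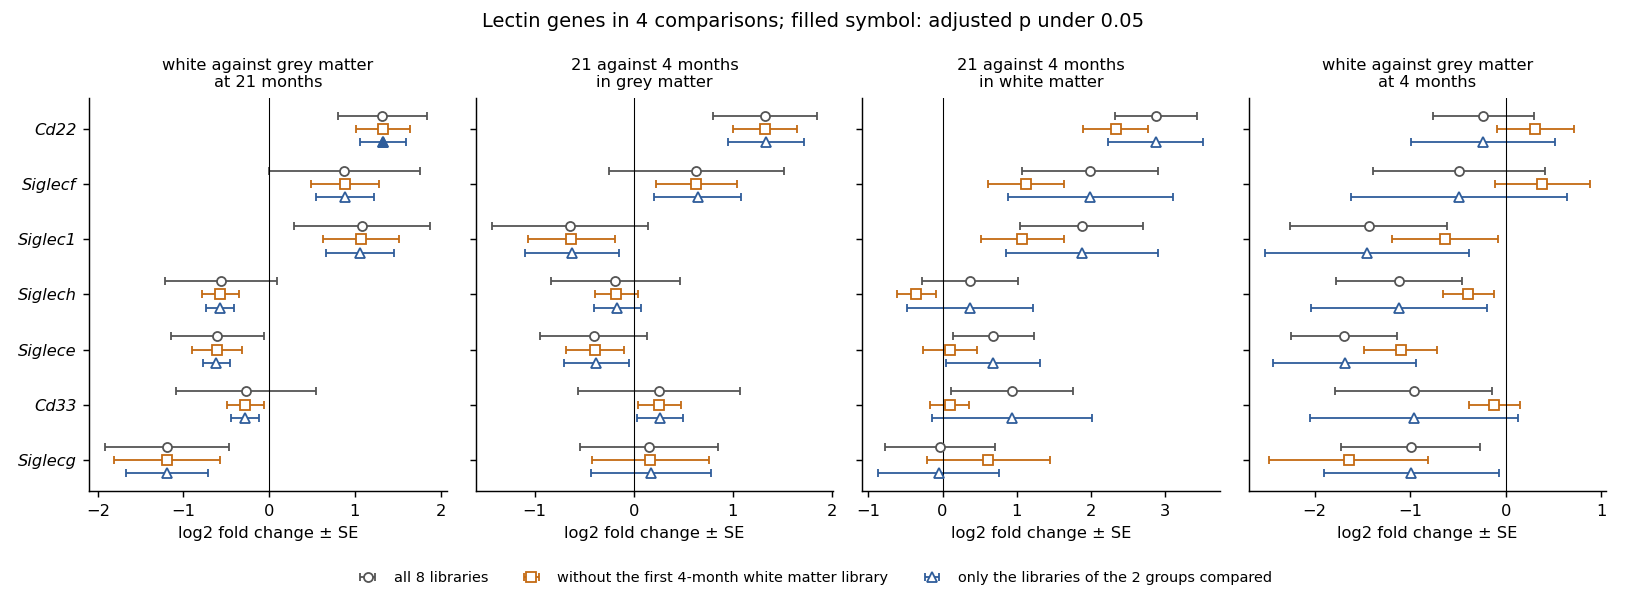
Log2 fold change ± SE of the 7 lectin genes in 4 comparisons, in the fit of all 8 libraries, the fit that leaves out the first 4-month white matter library and the fit of the compared groups only; a filled symbol marks an adjusted p under 0.05. Cd22 at 21 months in the fit of the compared groups is the only filled symbol, and the comparisons that use 4-month white matter shift when 1 library is left out.

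The list of further family members held 2 genes. Mag, the Siglec of oligodendrocytes and Schwann cells that lies next to Cd22, followed the divergent library. It stood at 2590 CPM in the first young white matter library and at 36.9 CPM in its partner, and at 10.4 to 36.3 CPM in the other 6. At 21 months Mag differed by -0.36 ± 0.332 on the log2 scale, with an adjusted p of 0.788, unlike its neighbour Cd22. Siglec15, known from osteoclasts, had no count in any of the 8 libraries.

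The genes that pass on the Siglec signal gave no call. Of 10 listed partners, 0 was called at 21 months, 5 lay above 0 and 5 below, and the median was 0.01, with values from -0.59 to 0.72. Tyrobp, whose adaptor Siglech uses, was at 1103 and 875 CPM in old white and 631 and 685 CPM in old grey matter, a difference of 0.58 ± 0.178 with an adjusted p of 0.190. Siglech lay in the opposite direction from its adaptor in these libraries. Ptpn6, the phosphatase recruited by inhibitory Siglecs, was at 133 and 111 CPM in old white and 95.3 and 108 CPM in old grey matter, a difference of 0.25 ± 0.172 with an adjusted p of 0.675. Inpp5d, Lyn and Syk, the other signalling genes of highest level after Tyrobp, differed by -0.12, -0.19 and -0.28 on the log2 scale, each without passing the test.

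Sialic acid itself is made in the cytosol, activated, carried into the Golgi and added to glycans by sialyltransferases. Of the synthesis and transport genes 9 of 10 were tested at 21 months and 0 was called. Gne, the first enzyme of synthesis, averaged 23.96 CPM in old white and 23.2 CPM in old grey matter, and Cmas, which activates sialic acid, averaged 45.4 and 38.4 CPM. Both differences, 0.03 and 0.24 on the log2 scale, were within the spread. Cmah, whose enzyme makes the hydroxylated sialic acid that mouse CD22 binds best, was at 0.946 and 0.745 CPM in old white matter and 7.33 and 5.30 CPM in old grey matter. Its difference of -2.88 ± 0.619 missed the threshold with an adjusted p of 0.0522, on 4 and 3 counts in old white matter.

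One sialyltransferase gene stood out at 21 months. St8sia6, whose enzyme builds disialic acid chains that Siglec-E binds, was at 159.7 and 103 CPM in old white matter and 20.6 and 27.6 CPM in old grey matter. Young libraries held 3.27 and 31.4 CPM in white matter and 6.10 and 14.3 CPM in grey matter. The 2 old white matter libraries stood far above the other 6, none of which passed 31.4 CPM. The 21-month fit called St8sia6 as higher by 2.45 ± 0.258 on the log2 scale, a 5.45-fold difference, with an adjusted p of 0.00245, and it was the only one called of 14 sialyltransferases tested of 20 listed. With all 8 libraries the difference was the same at 2.44 but had an adjusted p of 1.00, and without the divergent library 0.127. With age in white matter St8sia6 differed by 2.90 ± 0.921, with an adjusted p of 0.615, and by 2.06 ± 0.547 without that library.

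The enzyme that makes the linkage preferred by CD22 did not follow Cd22. St6gal1 was at 106 and 81.7 CPM in old white and 68.5 and 88.2 CPM in old grey matter, with overlap between the groups, and differed by 0.25 ± 0.198 with an adjusted p of 0.733. St3gal6, the sialyltransferase gene of highest level, averaged 185 CPM in old white and 248 CPM in old grey matter, a difference of -0.43 ± 0.156 with an adjusted p of 0.291. The next most abundant, St6galnac4 and St3gal5, differed by -0.08 and -0.22. Of the 14 tested, 5 lay above 0 and 9 below, with a median of -0.15.

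Enzymes that remove or trim sialic acid gave no call: 0 of 4 tested passed. Neu1, the lysosomal sialidase, averaged 46.5 CPM in old white and 51.8 CPM in old grey matter, a difference of -0.17 ± 0.225. Ctsa, which protects that sialidase in the lysosome, averaged 893 and 648 CPM, a difference of 0.45 ± 0.158 with an adjusted p of 0.271. Among the listed sialylated ligands, Cd24a alone was called. Cd24a, the ligand of Siglec-G, was at 7.57 and 6.70 CPM in old white and 43.2 and 39.6 CPM in old grey matter and fell by 2.54 on the log2 scale, with an adjusted p of 0.00137. Siglecg lay lower in old white matter together with Cd24a, and neutrophil and B cell markers, whose cells also carry Cd24a, lay lower there as well. Their part was not tested.

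**Figure D5:**
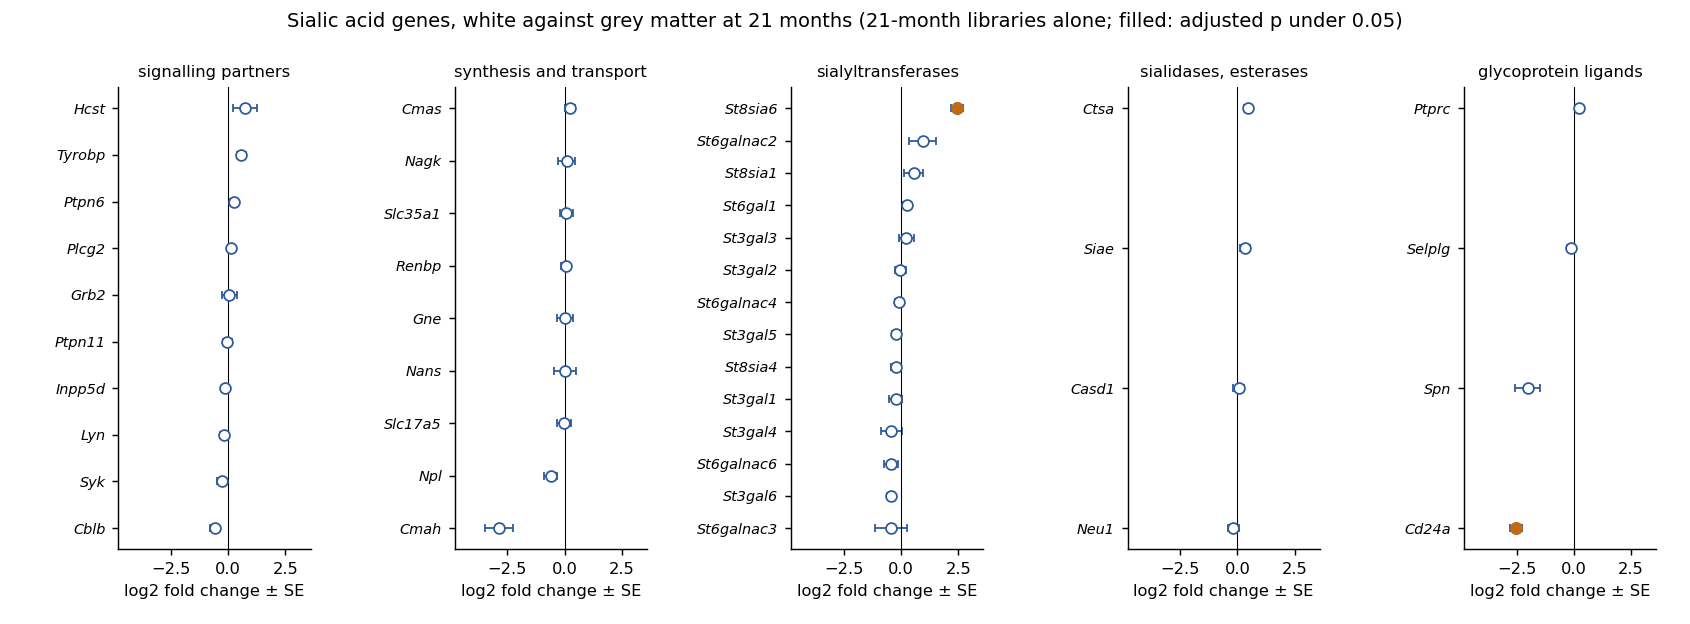
Log2 fold change ± SE of sialic acid pathway genes, white against grey matter at 21 months, in the fit of the 21-month libraries alone, grouped by role; filled points have an adjusted p under 0.05. St8sia6 at 2.45 and Cd24a at -2.54 are the 2 filled points.

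In the other comparisons none of these sialic acid genes was called, in the fit of all 8 libraries or without the divergent one. With age in grey matter, 10 of 15 tested sialyltransferases and 2 of 10 signalling partners lay above 0. The 5 sialidase and esterase genes tested all lay below 0 there, with a median of -0.24. Between the regions at 4 months Cd24a differed by -2.67 with all 8 libraries, with an adjusted p of 0.479, and by -3.05 without the divergent one, with an adjusted p of 0.920.

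Genes whose pattern over the libraries was most like that of Cd22 depended on the divergent library. Likeness was the root mean square difference of centred log2 CPM, over 8901 candidate genes. Over all 8 libraries the nearest to Cd22 were Cxcl10 at 0.392, Fgf2, Fmn1, Hcar2 and Lgals3bp at 0.473. Over the other 7 libraries they were Olfr111 at 0.241, Cpeb1, Efr3b, Chst2 and Cd72 at 0.357, and no gene was in both lists of 5. Cd72, an inhibitory receptor gene otherwise known from B cells, was at 53.7 and 46.9 CPM in old white and 17.0 and 17.3 CPM in old grey matter. Cxcl10, a chemokine gene, was at 75.2 and 85.4 CPM in old white and 27.5 and 38.5 CPM in old grey matter. Both stood highest in old white matter, and both are named here because of that likeness, so their agreement with Cd22 is a description.

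For Siglech the nearest over 8 libraries included Il16 at 0.083, P2ry13, Cass4 and Gal3st4 at 0.109. P2ry13, a purinergic receptor gene of homeostatic microglia, was at 602 and 807 CPM in old white and 857 and 974 CPM in old grey matter. Over the other 7 libraries the nearest were Pxn at 0.067, Trmt13, Zfp658, Ermap and Tsc22d4, again with no gene in both lists. The distances to Siglech were smaller than those to Cd22 in both sets of libraries.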

How the data were processed

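Values in the main table deposited by the authors are estimated counts per gene. They are mostly whole: 15.9% to 17.8% of the non-zero values in a library were not (tolerance 1e-06). The authors also deposited a normalised signal, in which 100% of values equal the rounded count times 1 factor per library. Partek and DESeq2 are named per the submitters' processing notes, with no version or role. No source used here names aligner, build, annotation or strand. Counts were rounded, filtered with filterByExpr (16237 genes kept) and scaled by TMM in edgeR 4.0.16 (R 4.3.3). Group means were fitted to all 8 libraries with the robust quasi-likelihood model (4 residual degrees of freedom), and p-values were Benjamini-Hochberg adjusted over all genes tested and called under 0.05. Standard errors come from the F statistic. With 2 libraries a group, an exact two-sided permutation test cannot go below p = 0.333, so single genes were tested only in these models. The 5 comparisons set the regions against each other at each age, the ages against each other in each region, and the 2 aging changes against each other. The same model was also fitted to the 2 compared groups only (2 residual degrees of freedom), and to 7 libraries, leaving out the first of 4-month white matter. Alternatives used DESeq2 1.42.0 and limma 3.58.1. The code was tested on simulated data.

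The members and gene lists were chosen with earlier results of these data known. All 7 members are given in each library. Of the sialic acid lists the text names called genes, up to 4 of the highest mean CPM, and Ptpn6, Tyrobp, Gne, Cmas, Neu1, Mag and Siglec15, and for Cd22 and Siglech the 5 genes of most similar pattern among genes whose highest group mean was 50 counts or more (prior count 2). Cmah and other marker genes outside that rule were named after their values were seen. Some genes that the rule names are not reported here.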

Additional observations from a re-analysis of the deposited data

Results flagged for a closer look

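Siglec1 was picked out because its libraries moved in opposite directions in 2 settings of the same contrast. Both 21-month white matter libraries (10.2 and 15.6 CPM) lay above both 4-month ones (0.727 and 6.02 CPM), and both 21-month grey matter libraries (7.33 and 4.75 CPM) lay below both 4-month ones (8.72 and 10.2 CPM). The difference between the aging changes, which equals the difference between the region differences at the 2 ages, was 2.52 ± 1.14 on the log2 scale, with an adjusted p of 1.00. Siglec1 had 2 counts in the first 4-month white matter library and 17 to 63 in the others.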

How the results depend on the processing

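No gene was called in any of the 5 comparisons with all 8 libraries in edgeR. At 21 months the calls between regions were 54 with DESeq2, 123 with voom and sample weights, 147 without a filter on low counts and 232 with the 21-month libraries alone, and 0 to 19 with 1 library left out. The calls between regions at 4 months were 515 with DESeq2, 1113 without a filter and 0 to 4222 with 1 library left out. For age in white matter they were 369, 963 and 0 to 4491, for age by region 20, 470 and 0 to 2422, and for age in grey matter 17 without a filter and 0 to 0 with 1 library left out. The upper ends came without the second young white matter library, which leaves the divergent one alone in its group, assumed to vary like the others.

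Settings added after seeing the data were DESeq2 without the first young white matter library, with 174, 19, 27, 2 and 4 calls for region at 21 months, region at 4 months, age in white matter, age in grey matter and age by region, and, for the 21-month libraries alone, DESeq2 with 313 calls and library totals without TMM with 261. Cd22 at 21 months was called with voom (1.42, adjusted p 0.0364) and, on the 21-month libraries alone, with DESeq2 (1.32, adjusted p 0.00514) and without TMM (1.29, adjusted p 0.0327). Without a filter, age in white matter was called for Cd22 (2.92, adjusted p 5.36e-05) and Siglecf (2.01, adjusted p 0.0496). Without the second young white matter library, 17 member values across the comparisons moved past the threshold, counting none at 21 months. Leaving out 1 library at a time kept Cd22 at 21 months between 0.96 and 1.80, with adjusted p from 0.263 to 1.00.

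Signs turned as follows, on the log2 scale, and no value of turned sign was called. For Siglecg with age in white matter they were 0.0274 with limma, 0.11 with voom, 0.42 without TMM, 0.0437 without a filter and 0.032 with the replicate block, and its age by region value was 0.0638 without TMM. DESeq2 without the first young white matter library gave 0.33 for Cd22 and 0.40 for Siglecf between regions at 4 months, -0.37 for Siglech and 0.61 for Siglecg with age in white matter, and -0.21 for Siglech, -0.19 for Cd33 and 0.43 for Siglecg for age by region. With 1 library left out, values ran from -1.17 to 0.31 for Cd22 and -3.24 to 0.39 for Siglecf between regions at 4 months. With age in white matter they ran from -0.36 to 1.86 for Siglech and -0.50 to 0.62 for Siglecg, and with age in grey matter from -0.81 to 0.15 for Siglece and -0.40 to 1.06 for Siglecg. For age by region they ran from -0.18 to 2.05 for Siglech, -0.16 to 2.91 for Cd33 and -1.08 to 0.45 for Siglecg. Far ends of these ranges were called for Siglecf at 4 months, Siglech with age in white matter, and Siglech and Cd33 for age by region, all without the second young white matter library. The cause was not tested.

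The labels number the libraries 1 and 2 in every group but state no shared animal, and deviations of same-numbered libraries correlated at -0.14 to 0.42 over genes, with 2 libraries a group. Whether the numbers pair the libraries is thus not known, and the fits without a block were kept. A replicate block on all 8 libraries called 0 genes in each comparison, with Cd22 at 1.39 at 21 months. On the 21-month libraries alone, a block added after seeing the data gave 522 calls. It called Cd22 (1.36, adjusted p 0.00951), Siglech (-0.58, adjusted p 0.042) and Siglece (-0.62, adjusted p 0.0453). That fit had fewer residual degrees of freedom than the 2 it has without the block, so these calls rest on very little replication. Depth limits Siglecg, Siglec1, Siglecf and Cd22, which had under 30 counts in at least 1 library.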
